A study of Mus musculus with 24 samples.

Results

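This comparison asked how the livers of Chop-/- mice differed from those of wild-type mice at 9 months of age, when both had received the liver carcinogen diethylnitrosamine (DEN). The members were the 7 arrays titled as Chop-/- DEN and the 6 titled as wild-type DEN, which made 13 of the 24 arrays of the series, and all 8969 genes with a detected probe were tested. Each difference below is on the log2 scale, Chop-/- minus wild-type, so that a positive value means a higher level in Chop-/- livers. All mice were male and of the C57BL/6J strain. They received a single injection of 25 mg/kg DEN at 15 days of age, and RNA came from whole liver, which could hold nodules beside non-tumorous tissue, and not from resected tumors. The study's other arrays held livers of mice injected with PBS, 3 of each genotype and of the same age and strain, and large tumors of DEN-treated mice, 3 wild-type and 2 Chop-/-. The labels give the genotype as Chop-/- with no promoter or cell type named, the line had been backcrossed into C57BL/6J, and the deletion takes out most of the CHOP open reading frame in every cell.

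CHOP, encoded by the gene Ddit3, is a C/EBP family transcription factor that is induced when the endoplasmic reticulum (ER) is stressed or when the integrated stress response, which acts through phosphorylation of the translation factor eIF2alpha and the transcription factor ATF4, is on. It is best known for promoting cell death during prolonged stress. DEN is activated by cytochrome P450 enzymes in hepatocytes into a DNA alkylating agent, and a dose given to young male mice leads to nodules and hepatocellular carcinoma months later.

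Levels were normalized log2 intensities of Illumina bead arrays. The 13 arrays belonged to 3 array sets, named A, B and C here, each with 8 arrays and each with both genotypes, and a replicate is named by its set and array number. A probe was called detected at a detection p under 0.01, and 8953 to 11075 probes were detected per array in the Chop-/- group and 9624 to 10537 in the wild-type group. The study counts the livers of each group by animal, so each array was taken as a separate mouse. Chop-/- replicate B_15 stood apart from its group. Its mean correlation with the other Chop-/- livers was 0.969, against 0.98 to 0.986 for each of the other 6. It carried several tumor genes, among them Afp and Gpc3, at the level of resected tumors, as described further down. In addition, the single probe for Maged1 read at the floor in wild-type replicates B_10 and B_11, and the one for Pdia3 in wild-type B_10 and B_11 and Chop-/- B_14, while all other DEN-treated livers read high.

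Few genes differed between the genotypes after DEN. At an adjusted p under 0.05, Ddit3 and Mars1 were lower in Chop-/- livers and no gene was higher, which was 0.0223% of the genes tested in the lower direction. The spread behind these tests was shared with the tumor and PBS arrays. When the DEN-treated livers were fitted alone, 5 genes passed that threshold. The study's own thresholds, a change above 1.5-fold with p under 0.05 before adjustment, were passed by 17 genes, or 0.19% of all genes, of which 10 (0.111%) were lower in Chop-/- livers and 7 (0.078%) higher. This split depended on the scaling, with 16 lower and 21 higher without the background correction and 4 lower and 1 higher on the authors' log2 values. Of the 17, Ddit3 (the deleted gene), Btbd11 and Manf were each detected in only a single genotype of these livers. Btbd11 and Manf are thus no support for the counts of 17, 10 and 7. Without the fold threshold 151 genes passed, or 1.68%, of which 59 (0.658%) were lower and 92 (1.03%) higher, and the median difference over all genes was 0.01. Without replicate B_15, 29 genes passed the 1.5-fold thresholds, of which 20 were lower, and all 17 of the genes named below were among them. Outside array set B, 53 genes passed, 39 of them lower.

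Ddit3 itself gave the check on the genotypes. In wild-type livers its level ran from 6.09 to 6.90 with a median of 6.51, and the probe was detected on all 6 arrays. In Chop-/- livers the level ran from 4.37 to 4.64 with a median of 4.44, and the probe was detected on none of the 7. Every Chop-/- liver was below every wild-type liver, and the values lay where undetected probes lie. The difference was -2.05 ± 0.14 (SE, adjusted p = 2.06e-09, limma), and because the probe was not detected in Chop-/- livers the gene was at least 2.39-fold lower there; such a bound sets the mean of the bright group against the lowest signal of a detected probe. The second detected Ddit3 probe also went undetected in every Chop-/- liver, with a difference of -1.54. Whether either probe lies in the deleted part of the gene was not checked here.

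Mars1, the cytosolic methionyl-tRNA synthetase that charges tRNA with methionine, was the other gene past the adjusted threshold. Its level was 9.70 to 10.31 in wild-type livers, with a mean of 10.03. In Chop-/- livers it was 8.81 to 9.31, with a mean of 9.06. The groups did not overlap, and the probe was detected on all 13 arrays. Mars1 was 1.95-fold lower in Chop-/- livers (difference -0.97 ± 0.13 SE, adjusted p = 0.000514; exact permutation p = 0.000583, the smallest that these groups can give). Within the 3 array sets the difference lay between -1.16 and -0.76, and a second Mars1 probe gave -0.79. Mars1 was also lower in Chop-/- livers after PBS, by -0.74 ± 0.19 (SE), in mice that share no sample with the DEN groups.

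Mars1 is the immediate neighbor of Ddit3 on chromosome 10, and the 2 gene models overlap in the RefSeq gene table. In that table Ddit3 is on the plus strand and Mars1 on the minus strand. Their promoters, from 250 bases before to 50 bases after the annotated start (RefSeq, GRCm38.p6), are shown because these are the genes that passed the adjusted threshold and lie side by side. Ddit3 is at chr10:127290543-127290842 on the plus strand and Mars1 at chr10:127311737-127312036 on the minus strand, each written 5′ to 3′. Capitals mark TGACTCA, the AP-1 motif, and CCAAT or its reverse complement ATTGG.
Ddit3 promoter: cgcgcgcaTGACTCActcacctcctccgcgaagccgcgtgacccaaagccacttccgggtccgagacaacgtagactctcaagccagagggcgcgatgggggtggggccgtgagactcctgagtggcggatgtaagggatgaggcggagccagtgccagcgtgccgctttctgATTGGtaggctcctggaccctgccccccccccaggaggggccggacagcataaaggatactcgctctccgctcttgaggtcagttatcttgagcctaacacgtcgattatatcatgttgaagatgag
Mars1 promoter: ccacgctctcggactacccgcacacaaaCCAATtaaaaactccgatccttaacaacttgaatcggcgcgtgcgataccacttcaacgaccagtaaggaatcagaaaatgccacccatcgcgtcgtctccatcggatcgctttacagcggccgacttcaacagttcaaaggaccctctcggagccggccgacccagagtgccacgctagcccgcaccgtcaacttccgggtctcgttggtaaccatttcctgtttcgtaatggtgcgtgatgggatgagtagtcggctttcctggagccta
The Ddit3 window held 1 TGACTCA and 1 ATTGG, and the Mars1 window held 1 CCAAT. On both strands, TGACTCA occurs in 5.2% and CCAAT in 37.4% of the 32851 promoter windows of this length. Neither window held TGATGNAA, a C/EBP-ATF composite motif found in 3.97% of windows, or TGCAAT, a C/EBP core sequence found in 8.4%. Sites more than 250 bases before the start were not searched, so these promoters may hold such motifs outside the window.

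Of the 17 genes past 1.5-fold, 9 were on chromosome 10, namely Ddit3, Mars1, Sdr9c7, Rfx4, Hal, Washc3 and Btbd11, which were lower in Chop-/- livers, and Scyl2 and Ndufa12, which were higher. Ddit3 is the deleted gene, and Btbd11 is no support for this count for the reason given above. Chromosome 10 held 455 of the tested genes, or 5.07%, and the other 8 genes were spread so that no other chromosome held more than 1. At an unadjusted p under 0.05, 20 genes on chromosome 10 differed, 4.4% of those tested there, against 1.54% of the genes on other chromosomes and a range of 0.306% to 2.87% over single other chromosomes. The median difference was 0.01 on chromosome 10 and 0.01 elsewhere.

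**Figure D1:**
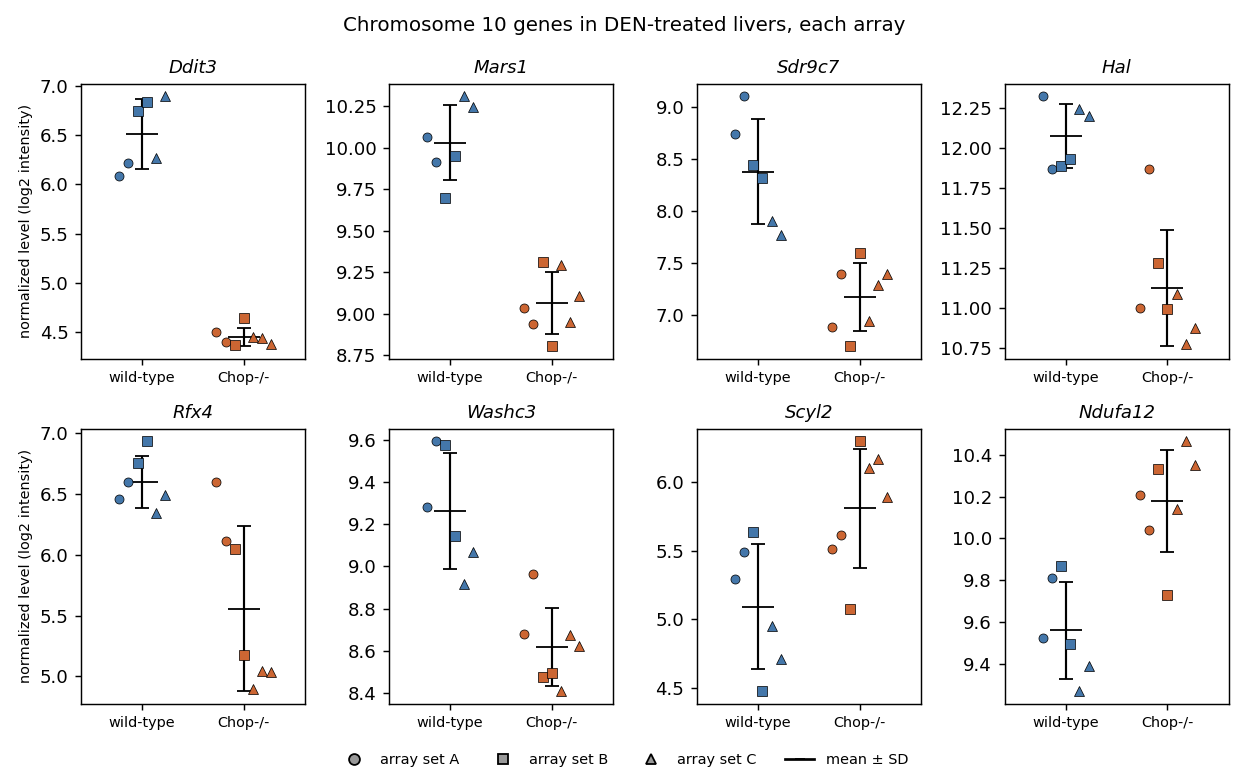
Levels of 8 chromosome 10 genes in each DEN-treated liver, as normalized log2 intensity, with symbols for the array set and the mean ± SD of each genotype. Ddit3, Mars1, Sdr9c7 and Hal do not overlap between wild-type (n = 6) and Chop-/- (n = 7) livers, and Scyl2 and Ndufa12 are higher in Chop-/- livers.

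Sdr9c7, a member of the short-chain dehydrogenase family, was at 7.77 to 9.10 in wild-type livers (median 8.38) and at 6.70 to 7.59 in Chop-/- livers (median 7.28). Every Chop-/- liver was below every wild-type liver. The difference was -1.21 ± 0.29 (SE, 2.31-fold), with an exact permutation p = 0.000583 and an adjusted p = 0.353 across all genes (limma). The probes of the gene did not read alike: the others detected gave -2.91 and -0.44, and when each probe was tested on its own the former had an adjusted p = 1.68e-07.

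Hal, histidine ammonia-lyase, which starts histidine breakdown in periportal hepatocytes, was the brightest of these genes. It was at 11.87 to 12.33 in wild-type livers (mean 12.08) and at 10.78 to 11.87 in Chop-/- livers (mean 11.13). The groups just failed to overlap, with Chop-/- replicate A_07 at the wild-type minimum and the other 6 at 11.28 or below. Hal was 1.93-fold lower (-0.95 ± 0.20 SE, exact permutation p = 0.00117, adjusted p = 0.191), and its adjusted p was 0.0296 without A_07.

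Rfx4, a transcription factor of the RFX family, showed a split within the Chop-/- group. Wild-type livers were at 6.34 to 6.93 with a median of 6.54. Chop-/- livers were at 4.89 to 6.60 with a median of 5.18, where A_06, A_07 and B_14 were at 6.04 or above and the other 4 at 5.18 or below. The probe was detected on all 6 wild-type arrays and on 3 of 7 Chop-/- arrays. The difference was -1.04 ± 0.28 (SE) overall (adjusted p = 0.961), and within sets it was -0.17 in A, -1.23 in B and -1.43 in C.

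Washc3, a subunit of the endosomal WASH complex, was at 8.92 to 9.59 in wild-type livers (median 9.21) and at 8.41 to 8.97 in Chop-/- livers (median 8.62), with A_07 as the only Chop-/- liver above the lowest wild-type one. Its difference was -0.64 ± 0.14 (SE, adjusted p = 0.191). Of its other detected probes, the first gave -1.34, with an adjusted p = 0.0287 when tested on its own, and the second gave 0.09. Btbd11, which encodes a BTB domain protein, was detected in 2 wild-type livers and in no Chop-/- liver, and its levels of 4.67 to 5.78 against 4.43 to 4.95 were too near the floor for a fold.

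The chromosome 10 genes on the higher side were Scyl2 and Ndufa12. Scyl2, a pseudokinase of clathrin-coated vesicles, was dim, at 4.47 to 5.64 in wild-type livers (median 5.12) and 5.07 to 6.30 in Chop-/- livers (median 5.90), a difference of 0.72 ± 0.20 (SE, adjusted p = 1.00). Ndufa12, an accessory subunit of respiratory complex I, was at 9.27 to 9.87 in wild-type livers (median 9.51) and at 9.73 to 10.47 in Chop-/- livers (median 10.21). Only B_15 fell within the wild-type range. The difference was 0.62 ± 0.15 (SE, adjusted p = 0.353), and of the 71 tested subunits of oxidative phosphorylation Ndufa12 was the only one with an unadjusted p under 0.05.

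When the 11942 detected probes with a gene symbol were tested one by one, 8 passed an adjusted p under 0.05, or 0.067% of them. They belonged to 5 genes, Ddit3, Mars1, Sdr9c7, Washc3 and Ttc41, which lie on chromosome 10. Ttc41, named after its values were seen, had 2 of these probes, which were detected in none of the 6 wild-type and in all 7 Chop-/- livers, while its brightest probe gave -0.06. Among these livers the 2 probes passed the detection filter only through the Chop-/- group, so they are no support for the count, and no size is given for them.

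These genes were not evenly placed. In the order of the tested genes of the chromosome, Mars1 came 1 place after Ddit3 and Sdr9c7 came 15 places after it. The others lay before it, with Ndufa12 at -68, Hal at -73, Scyl2 at -82, Washc3 at -90, Btbd11 at -103 and Rfx4 at -107 on that count. In the 40 tested genes from Rfx4 to Ndufa12, 10 had an unadjusted p under 0.05, of which 6 were lower and 4 higher, beside 4.4% of the genes on the chromosome and 1.68% of all genes. The stretch was set by 2 of the genes past the thresholds and holds 6 of them, which raises its count. Btbd11 is among the 10, the 6 lower genes and the 6 past the thresholds. For the reason given above it is no support for these counts. The median difference of the 40 was -0.06. Of the 9 tested genes among the 10 nearest on each side, 7 were above 0, against 53.5% of all genes. Besides Mars1 only Arhgef25 had an unadjusted p under 0.05 (0.55 ± 0.24 SE). Mbd6, whose annotated span also overlaps that of Ddit3, gave 0.38 ± 0.18 (SE), and Dtx3 and R3hdm2 gave 0.31 ± 0.20 and 0.28 ± 0.20.

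**Figure D2:**
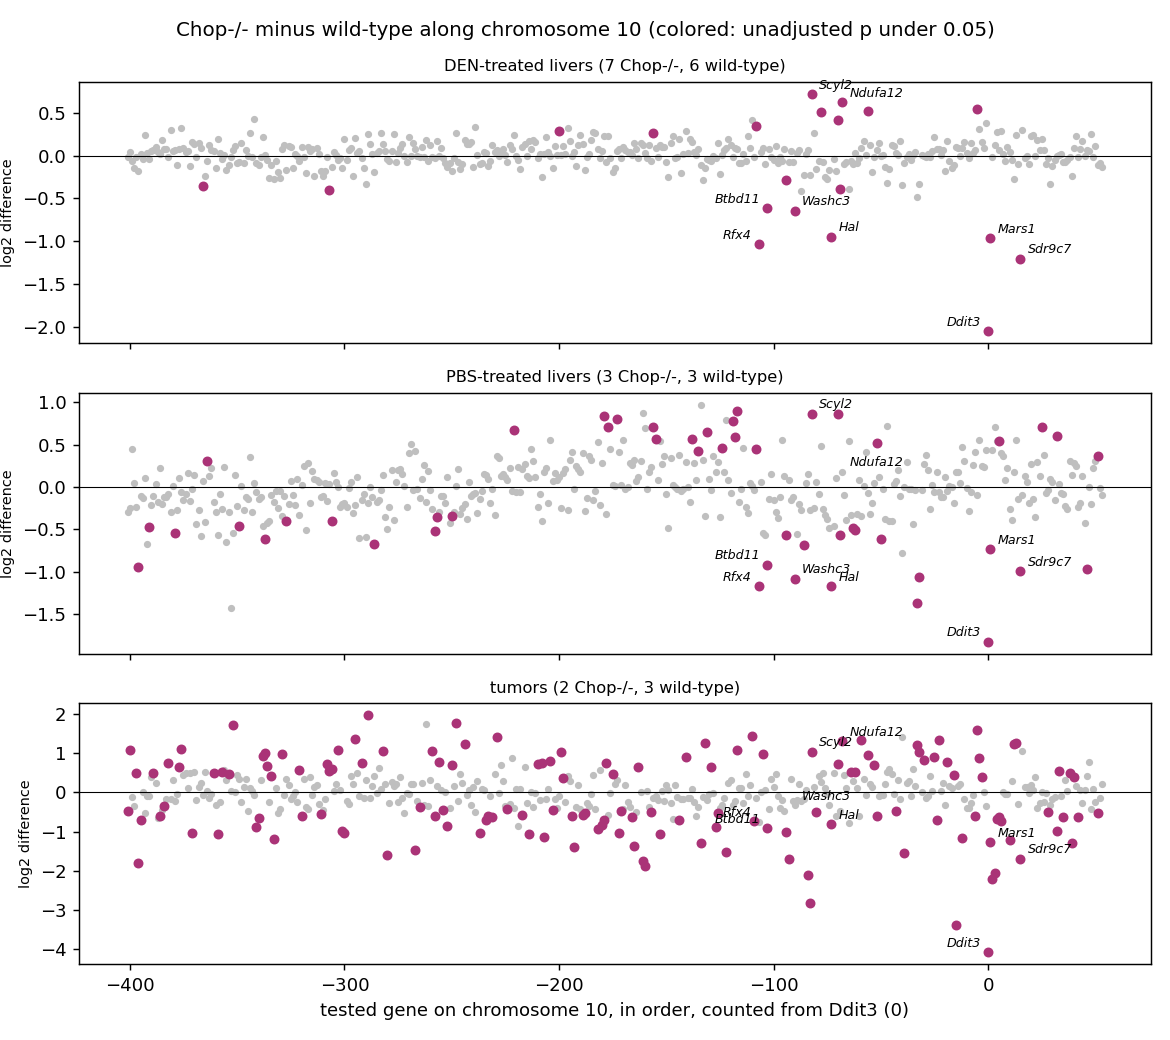
Difference between Chop-/- and wild-type (log2, vertical axis) for each tested gene of chromosome 10 in gene order counted from Ddit3 (horizontal axis), in DEN-treated livers, PBS-treated livers and tumors, with genes at an unadjusted p under 0.05 colored. Ddit3, Mars1 and Sdr9c7 at the right and Rfx4, Btbd11, Washc3 and Hal at the left of Ddit3 are below 0 in all 3 panels.

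The same genes were read in the arrays that this comparison did not use. All 9 chromosome 10 genes had the same sign in PBS-treated livers and all 9 in tumors, against 61.6% and 47.6% of all genes, and 8 of the 9 had an unadjusted p under 0.05 in PBS-treated livers and 7 in tumors, against 10.5% and 26.4% of all genes. In PBS-treated livers the difference was -1.17 for Rfx4, -1.17 for Hal, -1.08 for Washc3 and -0.99 for Sdr9c7. Btbd11 and Scyl2 were near the floor in these livers as well, and their sizes are not given. Of the 9, Ddit3 is the deleted gene, and Btbd11 was detected among the DEN-treated livers in wild-type ones only. Neither is support for these counts. Ndufa12 was 0.18 ± 0.21 (SE) there. Of the 8 genes past the thresholds on other chromosomes, 6 had the same sign in PBS-treated livers and 4 in tumors. The 8 include Manf, which was detected among the DEN-treated livers in Chop-/- ones only. They also include Maged1, whose difference rested on wild-type B_10 and B_11 at the floor. Manf and Maged1 are no support for the counts of 6 and 4. Whether the tumors came from mice whose livers are among the 13 is not given in the sources used here.

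Genes of macrophages and of the interferon response lay below 0 as groups, although no gene of these lists passed the adjusted threshold. Kupffer cells are the resident macrophages of the liver, and interferon-stimulated genes are induced by type I and type II interferons. Of 21 tested Kupffer cell and macrophage markers, 18 were below 0, or 85.7%, against 46.5% of all genes. Their median difference was -0.29, against 0.01 over all genes. An unadjusted p under 0.05 was reached by 5, all lower, against 0.658% of all genes in that direction. Over the 49 lists the share below 0 ran from 14.3% to 100%. It was 77.2% for cytosolic ribosomal proteins, 77.5% for oxidative phosphorylation subunits and 83.3% for cholesterol synthesis. The medians of those lists were -0.04, -0.05 and -0.07. The share below 0 alone thus does not set the immune lists apart. In whole liver RNA, fewer cells of a type and less RNA per cell cannot be told apart.

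Adgre1, which encodes a surface receptor that marks mouse macrophages, was the macrophage gene past 1.5-fold. It was at 7.58 to 9.16 in wild-type livers, with a median of 8.13. In Chop-/- livers it was at 7.20 to 7.75, with a median of 7.58. The groups overlapped, since wild-type C_19 and A_02 were within the Chop-/- range, and the 4 other wild-type livers were above every Chop-/- liver. The difference was -0.69 ± 0.20 (SE, 1.61-fold, exact permutation p = 0.00991, adjusted p = 1.00), and a second probe gave -0.65. Within array sets it was -0.71 in A, -1.17 in B and -0.23 in C, and without wild-type replicate B_10 it was -0.50 and no longer past 1.5-fold.

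The chains of complement C1q, which liver macrophages make, had differences of like size. C1qa differed by -0.31 ± 0.13 (SE), C1qb by -0.39 ± 0.18 and C1qc by -0.34 ± 0.16, all 3 with an unadjusted p under 0.05 and overlapping groups. Lyz2, the lysozyme of myeloid cells, gave -0.49 ± 0.24 and Cd163, a macrophage scavenger receptor, gave -0.52 ± 0.29, both with an unadjusted p above 0.05. Lyz2 itself lies on chromosome 10, at -33 in the order counted from Ddit3. The macrophage list had a median of -0.36 within array set A, -0.54 within B and -0.01 within C. Without B_15 it was -0.30. Its summed level ran from 11230 to 15100 in wild-type livers and from 9992 to 13730 in Chop-/- livers, so the groups overlapped.

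Of 36 tested interferon-stimulated genes, 30 were below 0, or 83.3%, against 46.5% of all genes, with a median of -0.24. Ifi27l2a, an interferon-induced gene with no firmly known role, separated the groups. It was at 8.48 to 9.22 in wild-type livers (median 8.62) and at 7.86 to 8.37 in Chop-/- livers (median 8.09). All 7 Chop-/- livers were below all 6 wild-type livers. Over all genes the groups did not overlap, in either direction, for 12, or 0.134%. The difference was -0.69 ± 0.22 (SE, 1.61-fold, exact permutation p = 0.000583, adjusted p = 1.00). Oasl2, of the oligoadenylate synthetase family, differed by -0.54 ± 0.21, Cmpk2, a mitochondrial nucleotide kinase, by -0.49 ± 0.20, and Dhx58, the RNA sensor LGP2, by -0.37 ± 0.17. The antiviral gene Rsad2 gave -0.51 ± 0.33. The list median was 0.02 within array set A, -0.34 within B and -0.37 within C.

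Other immune lists held fewer genes past the unadjusted threshold. Genes of MHC class II and costimulation were below 0 in 10 of 11 cases, against 46.5% of all genes. Their median was -0.24, and none had an unadjusted p under 0.05. MHC class I and antigen processing had a median of -0.09, with H2-M3, a class I molecule that presents formylated peptides, at -0.33 ± 0.14 (SE). Pattern recognition receptors had a median of -0.14 that moved to -0.22 without B_15 and to -0.012 with no detection filter, with Ly86, a partner of a Toll-like receptor family member, at -0.38 ± 0.18 and Clec7a, the receptor Dectin-1, at -0.50 ± 0.26. Tlr3, the sensor of double-stranded RNA, was detected on 1 wild-type array and on no Chop-/- array. Cytokines, chemokines and NF-kappaB targets had a median of -0.01 (-0.03 without B_15), with the interferon-induced chemokine Cxcl9 at -0.58 ± 0.36.

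Markers of other cell types were read beside these values and beside the 46.5% of all genes that were below 0. B and plasma cell markers were below 0 in 5 of 5 cases with a median of -0.21 (-0.20 without B_15). T and NK cell markers were below 0 in 9 of 10 cases with a median of -0.06, but in 7 of 10 with a median of -0.04 without B_15. Neutrophil and monocyte markers were below 0 in 3 of 8 cases with a median of 0.01, and in 4 of 8 with a median of -0.05 without B_15. Liver endothelial markers had a median of 0.05 (-0.0019 without B_15) and held 1 gene on each side at an unadjusted p under 0.05: Stab2, a scavenger receptor of sinusoidal endothelium that also lies on chromosome 10, at -0.29 ± 0.13 (SE), and Cdh5, VE-cadherin, at 0.30 ± 0.13. Stellate cell markers had a median of -0.01 and hepatocyte markers of 0.01, which were 0.02 and 0.03 without B_15. The part of cell numbers in the macrophage values was not tested.

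**Figure D3:**
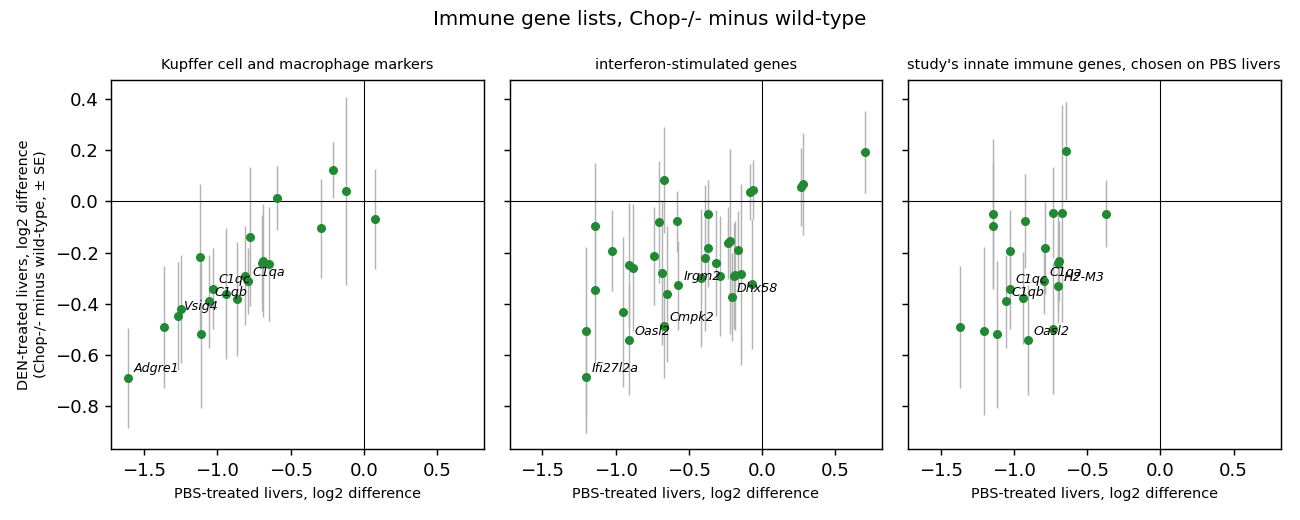
Difference between Chop-/- and wild-type for each gene of 3 immune lists, in DEN-treated livers (vertical axis, log2, ± SE) and in PBS-treated livers (horizontal axis, log2). Most points lie below 0 on both axes and nearer to 0 on the vertical one, with list medians in DEN-treated livers of -0.29, -0.24 and -0.24.

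The study itself lists genes of immune and defense terms that were lower in Chop-/- livers after PBS, and 21 of these 26 were tested. Genes that it gives only in its list for both directions were not included, so the members were picked for the lower direction, but on PBS arrays of other mice. After DEN, 20 of 21 were below 0, against 46.5% of all genes, with a median of -0.24. An unadjusted p under 0.05 was reached by 6, all lower, against 0.658% of all genes in that direction. In PBS-treated livers their median was -0.91, which is the value they were chosen on. Of the 21, 6 are also on the macrophage list and 5 on the interferon list, so the 3 lists are not independent of each other. The median was -0.21 within array set A, -0.40 within B, -0.09 within C and -0.29 without B_15. The study also read the immune genes it plotted, a set not the same as this one, after DEN. It reports some as significantly lower in Chop-/- livers and none as significantly higher.

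Genes that passed the thresholds after PBS were then read after DEN. After PBS, 5.2% of all genes passed the 1.5-fold thresholds. Of 204 genes that were lower there in Chop-/- livers (2.27% of all genes), 155 were below 0 after DEN, or 76.0%, against 46.5% of all genes, and their median went from -0.72 after PBS to -0.13 after DEN. Of 262 higher genes (2.92%), 203 were above 0 after DEN, or 77.5%, against 53.5% of all genes, with a median of 0.70 after PBS and 0.12 after DEN. The PBS medians are those of genes picked for their size there. Past the thresholds in both were 11 genes, which was 64.7% of the 17 after DEN and 2.36% of those after PBS, and 8 of the 11 lay on chromosome 10. The others were Adgre1, Ifi27l2a and Cav1, and the 8 include Ddit3 and Btbd11.

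The change of the genotype difference with DEN treatment was tested as an interaction. No gene passed an adjusted p under 0.05 (limma; lowest adjusted p = 0.994), and 316 of 8969 genes, or 3.52%, had an unadjusted p under 0.05. The interaction of Adgre1 was 0.92 (unadjusted p = 0.0145), from -1.61 after PBS to -0.69 after DEN, and that of C1qc was 0.68 (unadjusted p = 0.0234). For Mars1 it was -0.23, with an unadjusted p of 0.319. Adgre1 and Mars1 were named for their DEN values, and C1qc is on the study's list chosen on PBS values. The interaction uses the same values, so these p-values are not independent of the choice.

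The genes past 1.5-fold outside chromosome 10 and the immune lists had varied roles. Sys1, a Golgi membrane protein, was higher in Chop-/- livers, at 5.67 to 6.34 in wild-type livers (median 5.81) and 6.58 to 7.51 in Chop-/- livers (median 6.83). The groups did not overlap. The difference was 1.03 ± 0.21 (SE, 2.04-fold, exact permutation p = 0.000583, adjusted p = 0.191), and it was 0.94 within set A, 1.41 within B and 0.73 within C. After PBS it was 0.19 ± 0.31 (SE), and the interaction had an unadjusted p = 0.0372 (limma). Sys1 was named for its difference after DEN, which the interaction also uses, so this p is favored by the choice.

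Per1, a repressor of the circadian clock, was also higher, at 5.64 to 6.46 in wild-type livers (median 6.28) and 6.29 to 7.88 in Chop-/- livers (median 7.20). B_15 was the only Chop-/- liver within the wild-type range. The difference was 1.00 ± 0.36 (SE, 2.00-fold, exact permutation p = 0.0035, adjusted p = 1.00), but it was uneven over the sets, with 0.58 in A, 0.33 in B and 1.86 in C. Of 13 clock genes, 10 were above 0, against 53.5% of all genes, with a median of 0.20 (0.31 without B_15). The list median was 0.05 in A, -0.27 in B and 0.89 in C. Per2, the paralog of Per1, gave 0.38 ± 0.28. The time of day at which livers were taken is not given in the sources used here, and its part was not tested.

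Cav1, caveolin-1 of membrane caveolae, was lower, at 8.24 to 9.26 in wild-type livers (median 8.92) and from 7.64 with a median of 8.37 in Chop-/- livers. Only wild-type C_19 was within the Chop-/- range. The difference was -0.60 ± 0.27 (SE, adjusted p = 1.00). Syne4, the nuclear envelope protein nesprin-4, was 0.61 ± 0.26 (SE) higher with groups that overlapped. Maged1, a MAGE family protein, had a difference of 2.30 ± 0.97 (SE), which rested on wild-type B_10 and B_11 at the floor: it was 0.08 within set A and 0.04 within C, and it did not pass without either of these arrays.

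Since CHOP acts in the unfolded protein response and the integrated stress response, the genes of these pathways were read as groups. Of 22 tested ER chaperones and sensors, 9 were below 0 and 13 above, with a median of 0.03 (11 below 0 and a median of 0.0054 without B_15), and 2 were higher at an unadjusted p under 0.05. Manf, a secreted ER stress protein, was 1 of the 2, detected in no wild-type liver and in 4 of 7 Chop-/- livers. Its fitted values were uneven over the array sets. Among these livers it passed the detection filter only through the Chop-/- group. It is thus no support for this count, and no size is given for it. Herpud1, which takes part in ER-associated degradation, was at 12.73 to 13.38 in wild-type livers (median 13.16) and 13.26 to 13.82 in Chop-/- livers (median 13.44), a difference of 0.34 ± 0.14.

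Targets of the integrated stress response had a median of 0.06 over 23 tested genes (0.03 without B_15 and -0.09 outside array set B), and Mars1 was the only one with an unadjusted p under 0.05. Trib3, a pseudokinase induced by CHOP, was detected in neither group. Cth, the cystathionine gamma-lyase of cysteine synthesis, gave -0.47 ± 0.32 (SE) and Slc7a5, an amino acid transporter, gave 0.30 ± 0.20. Among the 6 tested cytosolic aminoacyl-tRNA synthetases and their partners, Mars1 stood alone, and the other 5 had unadjusted p-values above 0.05. Of the 11 tested CHOP, C/EBP and ATF factors, Ddit3 was the only one with an unadjusted p under 0.05.

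Lists of apoptosis, p53 targets, S phase and mitosis, and G1 cyclins and inhibitors held no gene at an unadjusted p under 0.05, with medians of -0.02, -0.01, 0.03 and 0.00. Without B_15 these were 0.0079, -0.06, -0.03 and -0.004, and the median of p53 targets was -0.15 over genes detected on at least 6 of the 13 arrays. Ccnd1, cyclin D1, gave 0.33 ± 0.19 (SE). Collagens and other matrix genes had a median of 0.04 over 28 tested genes (0.03 without B_15), also with none past that p, and Col3a1, the type III collagen chain, gave -0.25 ± 0.25. A p above the threshold does not show that these genes were alike in both genotypes. Over the 49 lists, 37 had a median within 0.1 of 0 and the medians ran from -0.29 to 0.20, and 31 lists held no gene at an unadjusted p under 0.05.

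**Figure D4:**
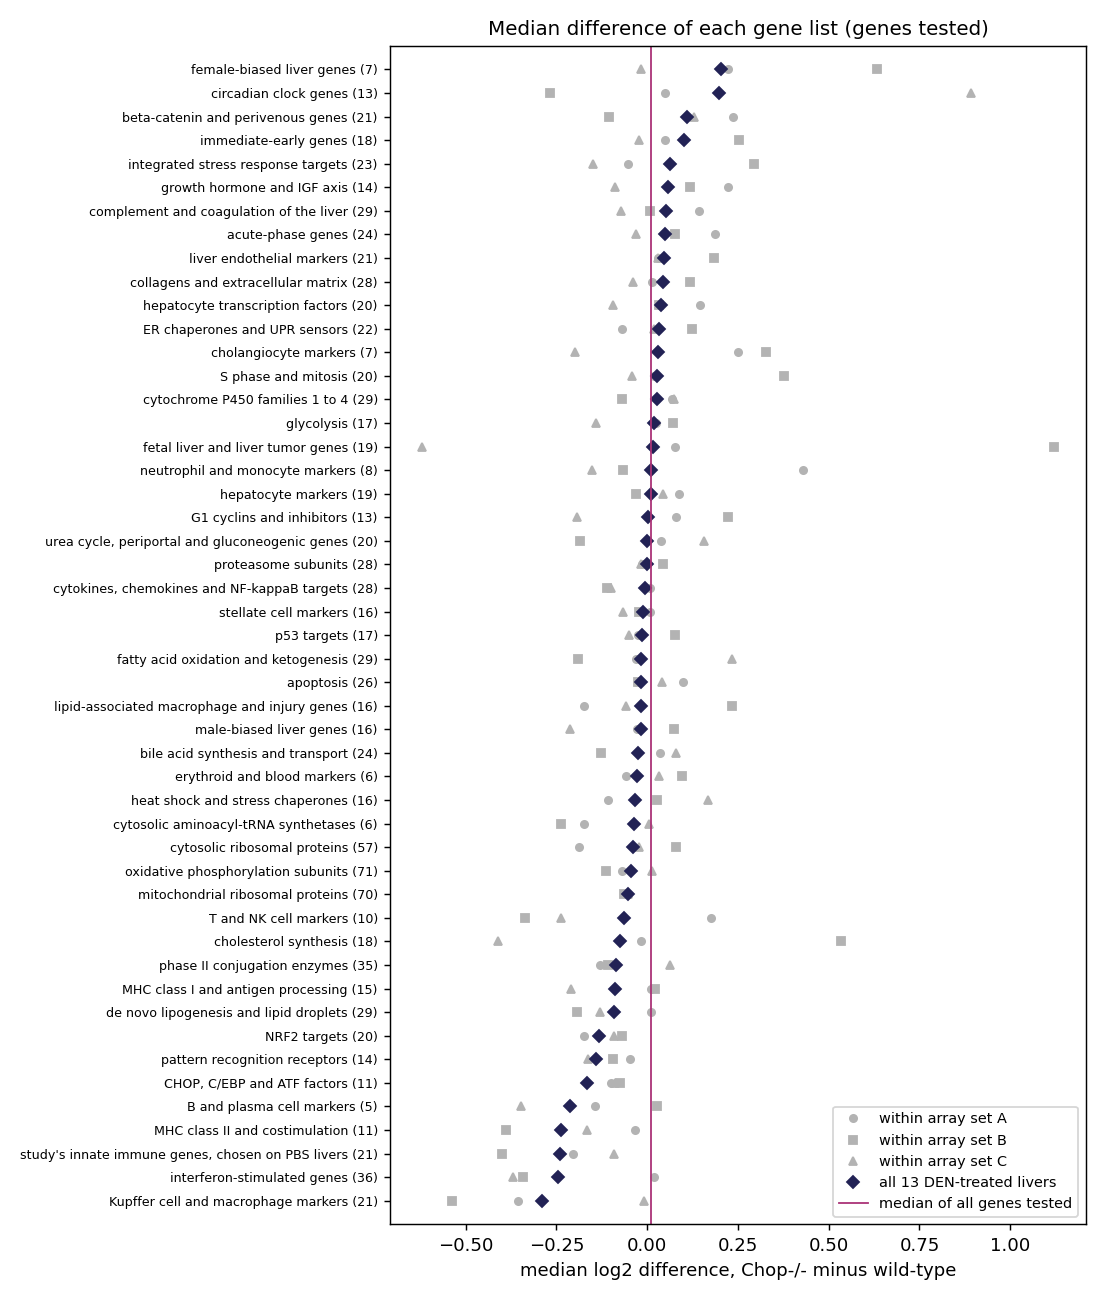
Median difference between Chop-/- and wild-type DEN-treated livers (log2, horizontal axis) of each of 49 gene lists, with the number of genes tested in parentheses, over all 13 arrays (dark diamonds) and within each array set (gray symbols). The macrophage, interferon, MHC class II and innate immune lists are lowest at -0.29 to -0.24, and the fetal liver and liver tumor list differs most between sets, from -0.62 in C to 1.12 in B.

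Targets of NRF2, the factor of the oxidative stress response, were below 0 in 18 of 20 cases, against 46.5% of all genes. Their median was -0.13, with no gene at an unadjusted p under 0.05. In PBS-treated livers their median was 0.23. Among metabolic and hepatocyte genes, single genes at an unadjusted p under 0.05 were Tat, tyrosine aminotransferase, at 0.44 ± 0.19 (SE), Abcg8, which exports sterols into bile, at 0.34 ± 0.14, and Prox1, a hepatocyte transcription factor, at 0.32 ± 0.15. Hspb1, a small heat shock protein, was at -0.40 ± 0.18. The list of heat shock and stress chaperones held 1 gene on each side at that p. Its differences ran from -0.40 to 0.41, with a median of -0.03. The immediate-early list held Dusp6, a phosphatase of ERK kinases that also lies on chromosome 10, at 0.52 ± 0.17. Igfbp2, an insulin-like growth factor binding protein, gave 0.70 ± 0.39 with a similar value in each set (0.61, 0.76 and 0.68) and an unadjusted p of 0.0857.

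The largest spread between livers of 1 genotype came from genes of fetal liver and liver tumors. Afp, alpha-fetoprotein, was at 6.21 to 7.04 in wild-type DEN-treated livers, with a median of 6.39. In Chop-/- livers it was at 4.48 to 11.98, with a median of 5.64. B_15 alone was at 11.98, within the 11.70 to 12.98 of Chop-/- tumors, while C_20 and C_23, at 4.48 and 4.64, were near the 4.42 to 4.57 of Chop-/- livers after PBS. No wild-type DEN-treated liver was that low. These low readings lie where the undetected Ddit3 probe read, near the floor. The group difference was 0.12 ± 0.76 (SE), and it was -0.78 without B_15 (adjusted p = 1.00). Both sizes rest in part on the readings near the floor.

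Other tumor genes repeated this order. Gpc3, the oncofetal proteoglycan glypican-3, was at 6.15 to 8.40 in wild-type DEN-treated livers (median 7.39) and at 5.38 to 11.94 in Chop-/- livers (median 6.76), with B_15 highest and C_20 lowest. Its difference was 0.09 ± 0.75 (SE) with B_15 and -0.66 without it. Tspan8, a tetraspanin, ran from 8.31 to 9.91 in wild-type and from 6.57 to 13.10 in Chop-/- livers, and Spink1, a trypsin inhibitor, from 5.80 to 8.38 and from 5.47 to 11.40. Without B_15 Tspan8 was -1.06 and Spink1 -1.04, both at an unadjusted p under 0.05 and an adjusted p of 1.00.

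Of 19 tested genes on the fetal liver and liver tumor list, 11 were highest in B_15 among the 13 livers, against 12.7% of all genes, and 13 were lowest in C_20 or C_23, against 14.0% of all genes. The list's mean level per array was 6.17 to 6.82 in wild-type DEN-treated livers. In Chop-/- livers it was 5.55 to 6.58 on the 6 arrays other than B_15 and 8.29 in B_15, against 7.93 to 10.1 in tumors and 5.07 to 5.39 in livers after PBS. With B_15, 9 of the 19 were below 0 with a median of 0.01, and without it 16 were below 0 with a median of -0.31. How much nodule tissue each piece of liver held is not given in the sources used here, and its part in these values was not tested.

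**Figure D5:**
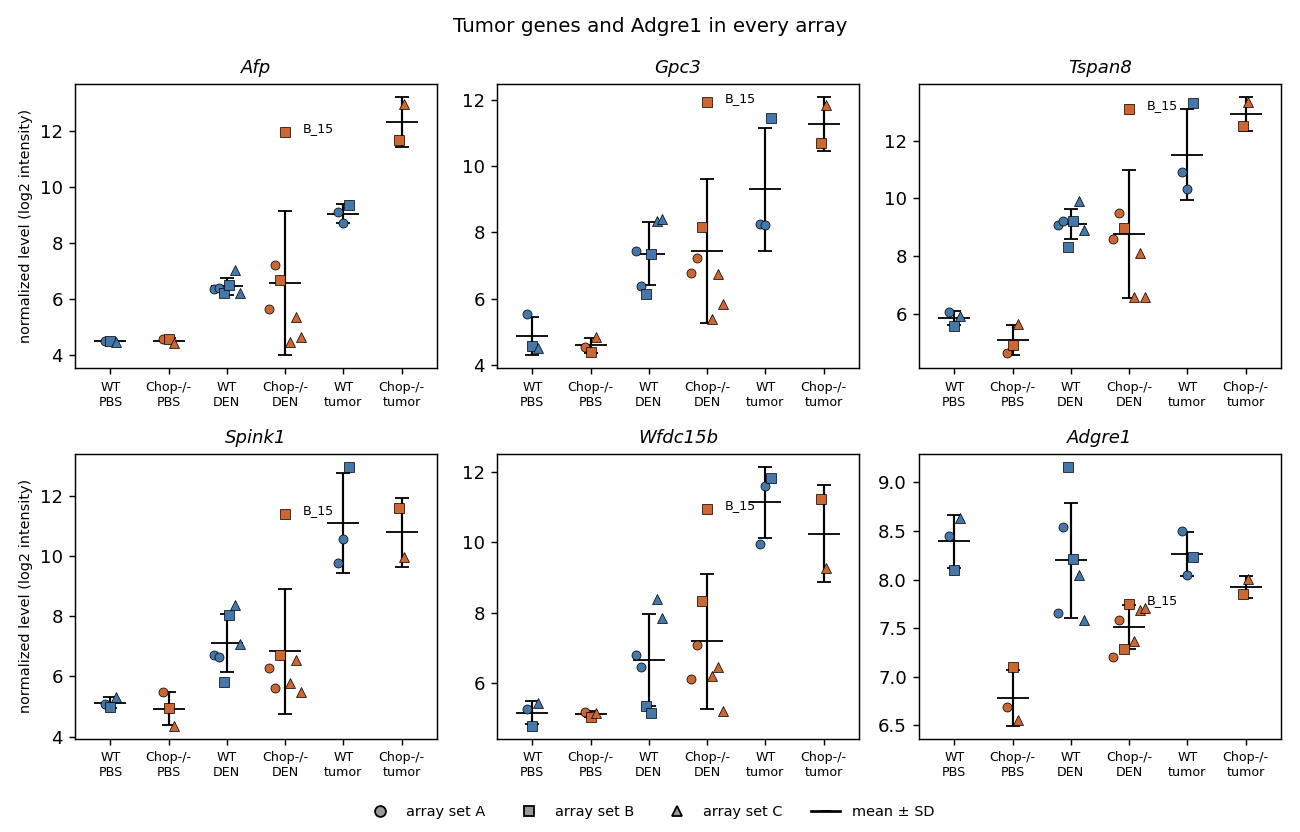
Levels (normalized log2 intensity, vertical axis) of 5 genes that are high in tumors and of Adgre1 in every array of the 6 groups, with symbols for the array set and the mean ± SD of each group. Chop-/- DEN replicate B_15 sits with the tumors for Afp, Gpc3, Tspan8, Spink1 and Wfdc15b, and C_20 and C_23 are near the PBS groups for Afp.

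By the spread around the group means, the 10 most variable genes of the 13 livers were Pdia3, Maged1, 2310057J18Rik, Moxd1, Dmbt1, Afp, Gpc3, Tspan8, Wfdc15b and Spink1. Pdia3, an ER disulfide isomerase, and Maged1 owed their spread to the arrays with a reading at the floor. Dmbt1, a secreted scavenger receptor protein, was near the floor except in wild-type A_03 at 9.51 and Chop-/- A_06 and C_22 at 9.16 and 6.26. Over all genes the median SD was 0.24 in wild-type and 0.23 in Chop-/- livers.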

How the data were processed

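Total RNA of frozen liver was labelled and read on Illumina MouseRef-8 v2.0 arrays with GenomeStudio 2011.1. The deposited intensity of each probe was already background subtracted by the authors, with negative values, and had the same distribution on every array. The authors also deposited a detection p-value per probe and array and log2 values, obtained by adding a constant to these intensities. Arrays were assigned to groups through the array names in the study's supplementary data, and 48 bead count and bead error columns were not used.

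For the present values neqc of limma 3.58.1 (R 4.3.3) was run on the intensities and detection p-values, which repeats background correction and quantile normalization, adds an offset of 16 and takes log2. Of 25697 probes, 12707 were detected on at least 2 arrays, and the brightest detected probe stood for each of 8969 genes. The 6 groups of 24 arrays were fitted in 1 linear model (lmFit, eBayes) with Benjamini-Hochberg adjustment over all genes. Permutation tests were exact and 2-sided over the 13 arrays. The fit was tested on simulated data. The number of arrays limits the precision.

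The genes named were Ddit3, every gene past either threshold, up to 4 members of each list with the smallest p, the 10 most variable genes, the neighbors of Ddit3 and the study's innate immune genes. Members and lists were chosen with earlier results of these data known. Gene names and order came from platform annotation and RefSeq (GRCm38.p6). Alternatives changed the background correction, scaling, offset, detection filter, probe rule, arrays fitted, array weights, blocks and moderation, used the authors' log2 values or left out each array. The probe-by-probe test and the fit outside array set B were chosen after seeing the data.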

Additional observations from a re-analysis of the deposited data

Results flagged for a closer look

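Each named gene was checked, in each genotype, for a single liver far from the rest of its group. Of 120 such checks, 12 found one. The named genes include the 10 most variable ones, which were picked for their spread, so no chance rate is set beside this count. Of the 12, 6 were Chop-/- replicate B_15 as the highest liver: Afp at 11.98, Gpc3 at 11.94, Spink1 at 11.40, 2310057J18Rik at 11.33, Lyz2 at 9.76 and the collagen gene Col3a1 at 7.30. Afp also had a high wild-type liver, C_18, at 7.04. Dmbt1 was high in wild-type A_03 at 9.51 and in Chop-/- A_06 at 9.16, with every other liver near the floor except Chop-/- C_22. Pdia3 was at 4.18 in Chop-/- B_14, where the probe gave no signal. Cav1 was low in Chop-/- C_20 at 7.64, and H2-M3 was low in Chop-/- B_14 at 5.77. No gene had a genotype difference that changed between PBS-treated and DEN-treated livers at an adjusted p under 0.05 (limma), and 316 had an unadjusted p under 0.05.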

How the results depend on the processing

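Ddit3 and Mars1 alone passed the adjusted threshold under most alternatives. The count was 5 (4 lower, 1 higher) with only the DEN-treated livers, where Hal, Sdr9c7 and Sys1 were added, 6 (3 higher) with array weights, and 8 probes (6 lower, 2 higher) when each detected probe was tested. Leaving out 1 array at a time gave 2 to 3 genes (2 to 3 lower, 0 to 1 higher). The count past 1.5-fold was 37 (16 lower, 21 higher) with no further background correction, 5 (4 lower, 1 higher) on the authors' log2 values, 26 (13 higher) with array weights, 53 (39 lower, 14 higher) outside array set B and 27 (16 lower, 11 higher) over detected probes, and 4 genes were higher with an offset of 50. Leaving out 1 array gave 15 to 29 genes, 8 to 20 lower and 5 to 11 higher. On the authors' values Ddit3 was at -0.80 and Mars1 at -0.86.

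Titles of both groups share replicate numbers. With the replicate number as a block on the authors' log2 values of the DEN-treated livers, 1 gene passed the adjusted threshold (1 lower), Ddit3, and 7 passed 1.5-fold (5 lower, 2 higher); Mars1 had an adjusted p = 0.0622. The deviations of same-numbered livers correlated at -0.12 to 0.16 over 6 pairs, only 1 above 0.1, and none matched its own number best, so the numbers were not taken to pair the livers, and the seventh Chop-/- liver had no partner.

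The medians of the macrophage, interferon and innate immune lists stayed within the spread between arrays, at -0.37 to -0.16, -0.32 to -0.13 and -0.29 to -0.17 over all alternatives. The share of genes lower after PBS that were below 0 after DEN was 91.1% on the authors' values, and 709 genes had an interaction at an unadjusted p under 0.05 with no detection filter. Signs turned for tumor genes only, among named genes. Gpc3 was -0.26 with array weights, -1.26 outside set B and -0.66 to 0.43 with 1 array left out, lowest without B_15. Afp was -0.19 with weights, -1.03 outside set B and -0.78 to 0.47 with 1 array left out, lowest without B_15. Tspan8 was 0.15 with the replicate block and -1.06 to 0.028 with 1 array left out, above 0 without C_20 or C_23. Spink1 was 0.011 on the authors' values and 0.15 with the block. Across the leave-one-out fits Ddit3, Mars1, Sdr9c7, Hal, Rfx4, Scyl2, Ifi27l2a, Per1 and Sys1 passed 1.5-fold in all 13. Adgre1 passed in 12, Washc3, Ndufa12 and Maged1 in 11, Cav1 and Btbd11 in 9, Syne4 in 7 and Manf in 6. Those fits all used the main normalization. On the authors' log2 values only Ddit3, Mars1, Sdr9c7, Hal and Maged1 of the 17 passed. Rfx4, Scyl2, Ifi27l2a, Per1, Sys1 and the rest did not. Dim genes such as Btbd11, Manf and Scyl2 are limited by signal near background.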
